A study of Rattus norvegicus with 18 samples.

Results

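The 10 genes described here are Fos, Fosb, Jun, Junb, Jund, Egr1, Ier2, Btg2, Atf3 and Nr4a1, the immediate early transcription factor genes and close partners, chosen by gene name from the 17337 genes quantified in rat oligodendrocyte progenitor cells (OPCs). All 10 were in the files and all 10 passed the filter on low values. The study of niche stiffness and ageing sequenced RNA from 18 libraries in 6 groups of 3. OPCs were isolated by magnetic sorting (MACS) and sequenced either as primary sorted cells or after growth on hydrogels. The labels do not state whether replicate libraries were separate animals, and all p-values therefore reflect the scatter among libraries, which may be technical.

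The 4 cultured groups were aged OPCs on soft hydrogel, aged OPCs on stiff hydrogel, neonate OPCs on soft hydrogel and neonate OPCs on stiff hydrogel. All 4 were grown with FGF and PDGF, mitogens of OPCs, and both gels were coated with laminin. The 2 primary groups carry the same cell label, and their age was read from the letter A or N of the library title. The culture text is repeated for them too, so the primary groups are taken as uncultured from their source label. Ages in weeks or months, strain and time on the gels are not given in the sources used here. Time since isolation and growth on a gel cannot be told apart in this design.

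Immediate early genes are transcribed within minutes of a stimulus from factors already present in the cell, without new protein synthesis, and their transcripts are short-lived. Growth factors and stress act on them through MAP kinases, serum response factor and CREB. Tissue dissociation and cell sorting are known to induce them in brain cells, microglia included. Fos and Fosb proteins pair with Jun, Junb or Jund to form the AP-1 factor, and Egr1 and Nr4a1 bind other elements.

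The libraries were shallow. Exonic read pairs, estimated from deposited coverage, ranged from 33939 to 141883 per library. Levels are given as scaled TPM, the deposited TPM (transcript abundance per library, corrected for length) after scaling between libraries. For these genes 1 read pair was worth 1.37 to 13.2 scaled TPM in cultured libraries, and 79 of 120 cultured values rested on under 5 pairs, against 9 of 60 primary values. Replicate 1 of aged soft, aged stiff and aged primary stood apart by broad low coverage: 54.7% to 77.2% of olfactory receptor genes were covered there, against 0.251% to 39.1% in the other 15 libraries. Markers went partly against the OPC label of the aged primary cells. Of 7 OPC markers 6 were lower in aged than in neonate primary cells without overlap, and 3 of the 7 were called lower. Pdgfra, the PDGF receptor of OPCs, was at 0 in 2 of the 3 aged primary libraries and at 15.9 scaled TPM at most. In neonate primary cells it was between 42.6 and 74.7 scaled TPM. Cspg4, another OPC marker, overlapped, at 13.3 to 35.9 scaled TPM in aged and 22.7 to 35.8 in neonate primary libraries. The summed level of 12 microglia markers was 2586 to 4401 scaled TPM in aged primary cells and 129 to 261 scaled TPM in neonate primary cells.

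Promoter sequence is shown for the 4 genes whose window held a motif bound by the known upstream factors. RefSeq windows of the GRCr8 assembly, from 250 bases before to 50 bases after the start, were matched by symbol for 7 of the 10 genes. Fos, Jun and Atf3 had no entry. Motifs were searched on both strands, and capitals mark the matches. They were the CArG box, which serum response factor binds, TGACGTCA, the full element of CREB and ATF factors, and TGACTCA, the AP-1 element. No match of one motif overlapped a match of another. The 250 bases before the start, 5′ to 3′ on the gene's strand, were as follows, with Egr1 at chr18:26736828-26737077 on the plus strand, Ier2 at chr19:40399123-40399372 on the plus strand, Btg2 at chr13:48087691-48087940 on the minus strand and Jund at chr16:18769772-18770021 on the minus strand.
Egr1: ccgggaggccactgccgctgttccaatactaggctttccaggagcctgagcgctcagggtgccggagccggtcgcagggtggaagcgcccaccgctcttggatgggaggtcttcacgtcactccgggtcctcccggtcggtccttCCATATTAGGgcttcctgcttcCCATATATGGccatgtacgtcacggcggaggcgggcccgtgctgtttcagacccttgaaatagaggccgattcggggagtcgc
Ier2: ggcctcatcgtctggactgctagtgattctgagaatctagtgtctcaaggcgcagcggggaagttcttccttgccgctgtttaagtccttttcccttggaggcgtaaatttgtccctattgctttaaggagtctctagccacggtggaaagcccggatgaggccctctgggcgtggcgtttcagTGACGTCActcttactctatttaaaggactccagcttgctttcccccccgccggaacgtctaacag
Btg2: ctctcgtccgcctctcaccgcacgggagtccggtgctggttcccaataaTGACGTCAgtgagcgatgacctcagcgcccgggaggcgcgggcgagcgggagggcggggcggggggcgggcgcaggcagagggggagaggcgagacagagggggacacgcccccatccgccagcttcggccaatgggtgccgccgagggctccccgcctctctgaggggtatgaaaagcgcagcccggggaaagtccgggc
Jund: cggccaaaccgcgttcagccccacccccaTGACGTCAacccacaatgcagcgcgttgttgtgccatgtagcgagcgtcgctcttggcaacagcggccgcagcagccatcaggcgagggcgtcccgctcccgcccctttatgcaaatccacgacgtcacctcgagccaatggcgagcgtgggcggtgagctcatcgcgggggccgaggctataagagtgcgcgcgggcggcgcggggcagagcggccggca
Egr1 had 2 CArG boxes, CCATATTAGG from 105 to 96 bases and CCATATATGG from 83 to 74 bases before the start. TGACGTCA lay 66 to 59 bases before the start of Ier2, 201 to 194 before that of Btg2 and 221 to 214 before that of Jund. The windows of Fosb, Junb and Nr4a1 held none of the 3 motifs, and TGACTCA was in none of the 7. Among all 33469 windows of this length, 1.64% held a CArG box, 1.83% held TGACGTCA and 4.63% held TGACTCA. A match describes the letters of the window only.

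Primary sorted cells of both ages carried the highest levels of most of these genes. Fos ranked 12 among all genes by mean level in aged primary cells and 20 in neonate primary cells. It made up 51.0% to 53.0% of the summed level of the 10 genes in aged primary libraries and 56.2% to 60.6% in neonate primary libraries. Egr1, a zinc finger factor, ranked 62 in aged primary cells and 83 in neonate primary cells. Ier2, a small nuclear regulator, ranked 71 in aged primary cells and 127 in neonate primary cells. The ranks of the means were lower for Nr4a1, an orphan nuclear receptor, at 1580 in aged primary cells and 3357 in neonate primary cells. Atf3, a stress-induced bZIP factor, ranked 1968 in aged primary cells and 4743 in neonate primary cells.

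The 10 genes together summed to 167 to 279 scaled TPM in aged soft, 257 to 361 in aged stiff and 1464 to 4513 in aged primary libraries. In neonate cells the sums were 183 to 304 scaled TPM in soft, 99.6 to 218 in stiff and 1389 to 1971 in primary libraries. Sums of cultured and primary libraries did not overlap at either age, and the sums of the 2 primary groups did.

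**Figure D1:**
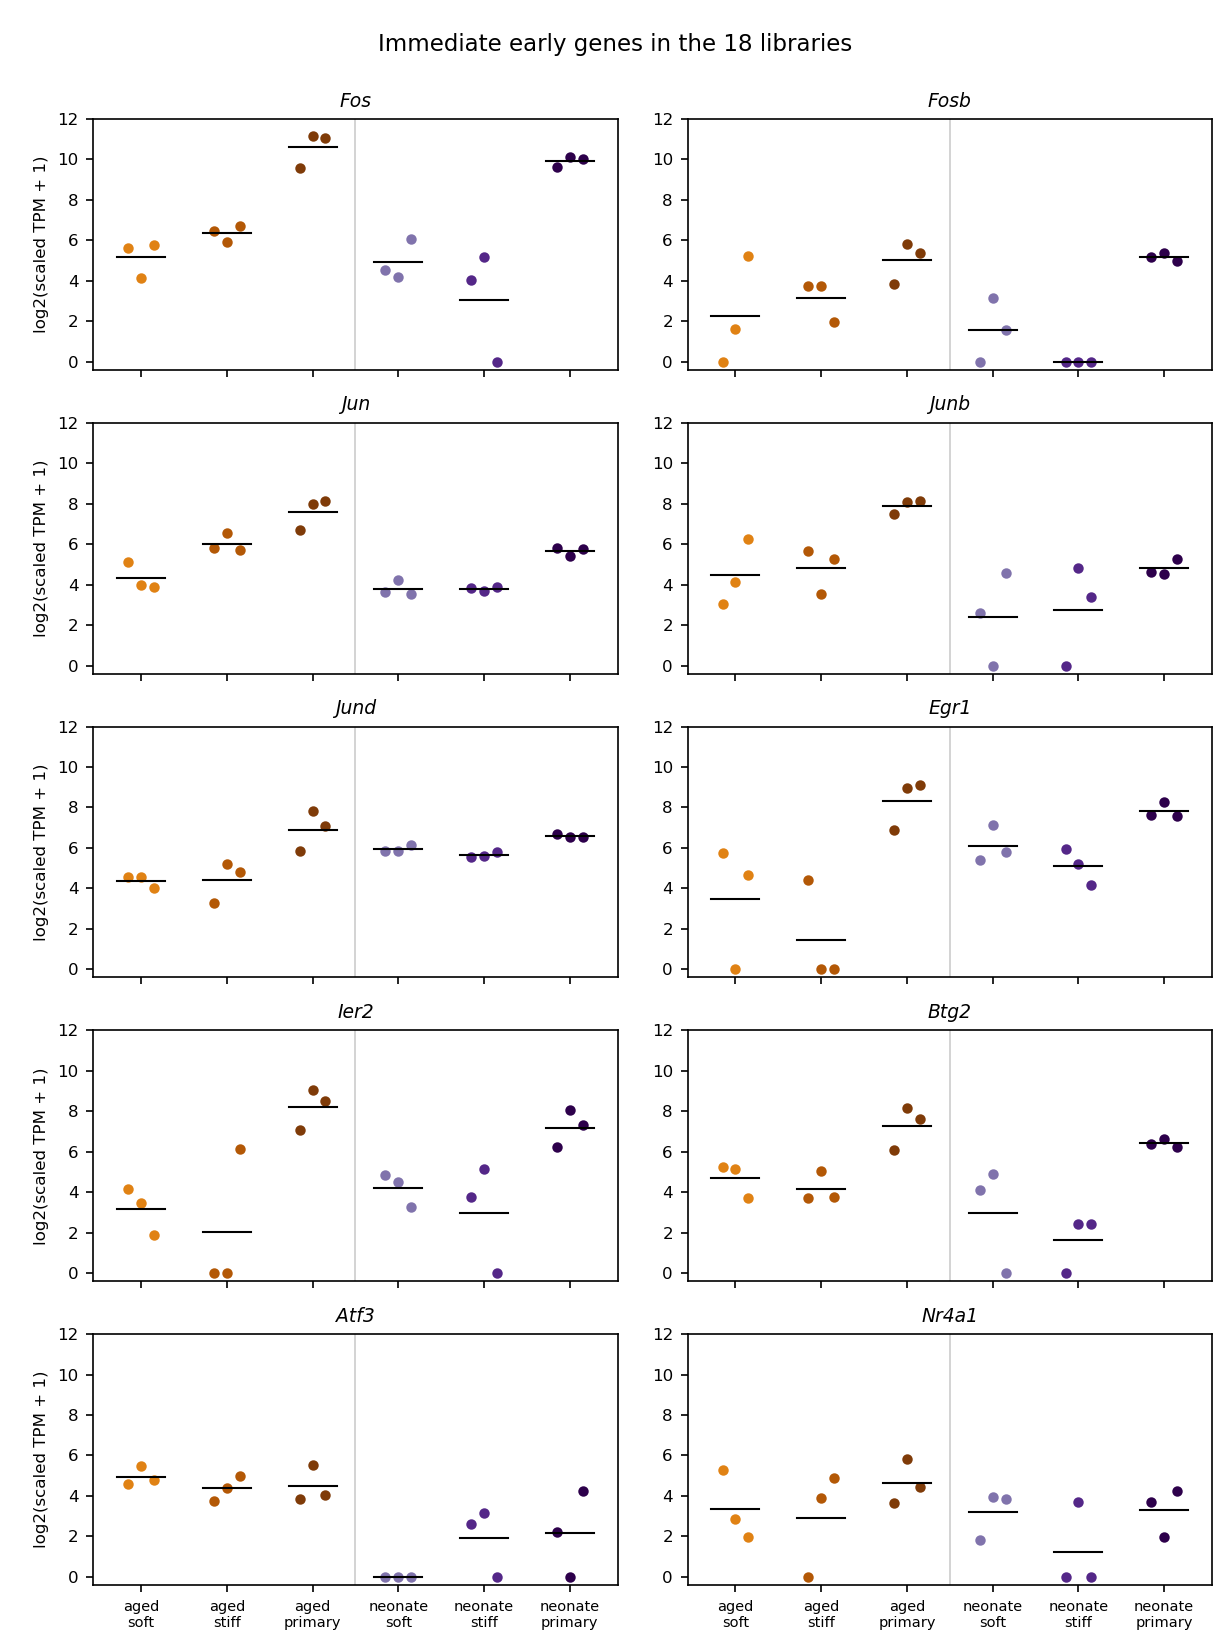
Levels of the 10 genes in each of the 18 libraries as log2(scaled TPM + 1), with 3 points per group and a line at the group mean of the log values. Fos lies at 771.53 to 2300.09 scaled TPM in aged primary libraries and 800.69 to 1108.09 in neonate primary libraries, above all 12 cultured libraries, while Atf3 in aged cells does not separate culture from primary.

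In aged cells, culture was set against primary sorting by taking the mean of both gels. Of the 10 genes 5 were lower in culture and 0 were higher: Fos, Egr1, Ier2, Jund and Jun. Among all 15144 genes tested 0.773% were called lower and 1.11% were called in either direction, by limma with Benjamini-Hochberg adjustment at 0.05. For 7 of the 10 genes every cultured library lay below every primary one, as did 2.93% of all genes. The median difference of the 10 genes was -2.69 on the log2(scaled TPM + 1) scale, against 0.05 for all genes. In bulk RNA, fewer cells of a type and less RNA per cell cannot be told apart.

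Fos, the partner of Jun proteins in AP-1, was at 47.86, 16.55 and 54.48 scaled TPM in aged soft, 88.00, 59.70 and 103.69 in aged stiff, and 771.53, 2300.09 and 2116.44 in aged primary libraries. The cultured libraries all lay far below the primary ones, and primary replicate 1 was the lowest of its group. The log2 difference was -4.83 ± 0.74 (SE; 6 cultured and 3 primary libraries; limma adjusted p = 0.000488). Egr1, a target of serum response factor, was at 53.49, 0 and 24.06 scaled TPM in aged soft, 20.15, 0 and 0 in aged stiff, and 115.54, 506.42 and 543.10 in aged primary libraries. It was listed at 0 in 3 of 6 cultured libraries and the groups did not overlap. Its log2 difference was -5.84 ± 0.97 (SE; limma adjusted p = 0.00143), a value that depends on the pseudocount of 1 because of the zeros.

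Ier2 was at 17.13, 10.18 and 2.68 scaled TPM in aged soft, 0, 0 and 68.15 in aged stiff, and 134.17, 528.46 and 359.03 in aged primary libraries. A single stiff library reached 68.15, and it was still under the lowest primary one. The log2 difference of Ier2 was -5.60 ± 1.08 (SE; limma adjusted p = 0.00608). Jun, the partner that gives AP-1 most of its activating capacity, was at 33.36, 14.56 and 13.79 scaled TPM in aged soft, 54.24, 92.66 and 50.66 in aged stiff, and 103.67, 249.86 and 278.97 in aged primary libraries. The cultured libraries stayed below the primary ones, with stiff replicate 2 close to primary replicate 1. The log2 difference of Jun was -2.44 ± 0.54 (SE; limma adjusted p = 0.0181).

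Jund, the Jun family member with the steadiest expression in most tissues, was at 22.50, 22.29 and 15.30 scaled TPM in aged soft, 8.80, 35.56 and 26.63 in aged stiff, and 55.98, 222.62 and 136.05 in aged primary libraries. No cultured library reached the lowest primary one. Its log2 difference was -2.51 ± 0.54 (SE; limma adjusted p = 0.0142). Junb and Btg2 also separated without overlap but did not pass the test. Junb, a Jun family member, was at 7.32, 16.28 and 75.89 scaled TPM in aged soft, 49.53, 10.47 and 37.08 in aged stiff, and 176.80, 267.03 and 284.75 in aged primary libraries (limma adjusted p = 0.0989). Btg2, an antiproliferative co-regulator, was at 36.44, 34.88 and 11.94 scaled TPM in aged soft, 11.95, 32.35 and 12.54 in aged stiff, and 67.52, 280.84 and 198.39 in aged primary libraries (limma adjusted p = 0.117).

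Fosb, Nr4a1 and Atf3 overlapped between aged culture and aged primary cells. Atf3 was at 23.31, 44.05 and 26.35 scaled TPM in aged soft, 12.29, 20.25 and 30.60 in aged stiff, and 13.20, 45.98 and 15.45 in aged primary libraries. It was the 1 gene of the 10 whose fitted log2 difference was above 0, at 0.19 ± 0.91 (SE; limma adjusted p = 0.984). The direction of the other 9 was below 0, also without scaling and under quantile normalization. Fosb was at 0 to 35.95 scaled TPM in the 6 cultured and 13.58 to 55.71 in the 3 primary libraries, and Nr4a1 at 0 to 37.79 in cultured and 11.51 to 56.40 in primary ones.

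The calls of Jun, Jund and Ier2 were lost in some alternatives, while their log2 differences kept their direction, from -3.03 to -2.18 for Jun, -3.05 to -2.07 for Jund and -6.80 to -4.69 for Ier2. Without aged primary replicate 2 the count was 2 of 10, calls over all genes were 43 in place of 168, and limma adjusted p was 0.158 for Jun, 0.195 for Jund and 0.0849 for Ier2. Without aged primary replicate 3 it was 3 of 10, with 0.177 for Jun and 0.101 for Jund. Jun (0.0689) and Ier2 (0.0767) also missed the threshold with a pseudocount of 0.1, and Jund (0.0872) when fitted on the aged groups alone. Junb and Btg2 passed in that last fit, at 0.0117 for Junb and 0.0345 for Btg2, and with voom on read equivalents. Without the 3 broad libraries the same 5 of the 10 were called. Fos and Egr1 were called in 19 of 19 alternatives. Of 12 microglia markers 5 were lower in aged culture and 0 higher, their sums were 301 to 612 scaled TPM in soft, 134 to 394 in stiff and 2586 to 4401 in primary libraries, and 9 of 12 did not overlap with primary cells. P2ry12 was at 0 to 7.34 scaled TPM in soft, 0 to 18.2 in stiff and 621 to 1164 in primary libraries. C1qb, Tyrobp and Aif1 overlapped: Tyrobp was at 61.4 to 190 scaled TPM in soft, 0 to 42.4 in stiff and 68.6 to 241 in primary libraries, and Aif1 at 8.09 to 94.8 in soft, 0 to 53.7 in stiff and 59.6 to 79.99 in primary libraries. The part of microglia RNA in these differences was not tested. Of 7 OPC markers 1 was called, higher in culture, and their sums were 277 to 407 scaled TPM in soft, 61.2 to 429 in stiff and 67.3 to 172 in primary libraries. Of 6 mature oligodendrocyte markers 1 was higher in aged culture, and 0 of the astrocyte, neuron and endothelial markers were called.

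In neonate cells 2 of the 10 genes, Fos and Btg2, were lower in culture and 0 were higher, where 0.0594% of all genes were called lower and 0.099% in either direction. Again 7 of the 10 did not overlap and were lower in culture, as did 2.4% of all genes. All 10 fitted differences were below 0, also without scaling and under quantile normalization. Their median was -2.23 on the log2(scaled TPM + 1) scale, against 0 for all genes.

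Fos was at 21.90, 17.32 and 66.29 scaled TPM in neonate soft, 15.59, 35.49 and 0 in neonate stiff, and 800.69, 1108.09 and 1031.20 in neonate primary libraries. The lowest primary library was more than 10 times as high as the highest cultured one. The log2 difference was -5.92 ± 0.74 (SE; 6 cultured and 3 primary libraries; limma adjusted p = 0.000172). Btg2 was at 16.01, 28.74 and 0 scaled TPM in neonate soft, 0, 4.48 and 4.33 in neonate stiff, and 81.59, 96.86 and 74.52 in neonate primary libraries. Its cultured libraries lay below all primary ones, with 2 listed at 0. The log2 difference was -4.10 ± 0.85 (SE; limma adjusted p = 0.0491).

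The Btg2 call sat at the threshold: it was kept in 7 of 19 alternatives, with limma adjusted p from 0.000496 to 0.305. It was lost without neonate primary replicate 1 (adjusted p = 0.181), replicate 2 (0.305) or replicate 3 (0.201), neonate soft replicate 3 (0.0676) or neonate stiff replicate 1 (0.0970). It was also lost, at 0.0538, when the scaling factors were rescaled to a geometric mean of 1, an alternative chosen after seeing the data. The Fos call was kept in 19 of 19 alternatives.

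Fosb, a Fos family member, was at 0, 7.97 and 2.02 scaled TPM in neonate soft, 0 in all 3 neonate stiff, and 35.18, 40.91 and 30.77 in neonate primary libraries. Its groups did not overlap, and it missed the threshold (limma adjusted p = 0.0864), which it passed on the neonate groups alone (0.0425), without the 3 broad libraries (0.0470), without scaling and with voom. Egr1 was at 41.77, 139.93 and 54.38 scaled TPM in neonate soft, 59.83, 36.23 and 17.03 in neonate stiff, and 198.83, 302.91 and 187.59 in neonate primary libraries. No cultured library reached the primary ones, although soft replicate 2 came near (limma adjusted p = 0.960). Jund differed least among the 7 without overlap, with 45.79 to 69.85 scaled TPM in the 6 cultured and 90.61 to 103.18 in the 3 primary libraries. Jun was at 10.73 to 17.92 scaled TPM in cultured and 41.37 to 55.99 in primary libraries, and Ier2 at 0 to 34.08 in cultured and 74.08 to 265.14 in primary ones. Ier2 passed the test without scaling and with voom, Jun without scaling and Egr1 with voom. Junb, Atf3 and Nr4a1 overlapped.

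Beside the neonate values, 1 of 12 microglia markers was lower in culture, with sums of 46.5 to 122 scaled TPM in soft, 34.4 to 52.5 in stiff and 129 to 261 in primary libraries. Aif1, C1qa, Cx3cr1 and Tyrobp were at 0 in all 6 cultured libraries, and Tmem119 was at 0 in all 3 neonate primary libraries. Their part in the result was not tested. The OPC markers summed to 1257 to 1506 scaled TPM in neonate soft, 797 to 1570 in neonate stiff and 728 to 855 in neonate primary libraries, with 0 of 7 called. The astrocyte markers Gfap and Gja1 did not overlap, in opposite directions. Gfap was higher in culture, at 43.7 to 192 scaled TPM in soft, 72.8 to 157 in stiff and 3.16 to 5.13 in primary libraries. Gja1 was lower in culture, at 10.2 to 29.5 scaled TPM in soft, 2.76 to 20.9 in stiff and 34.9 to 52.7 in primary libraries. The 6 astrocyte markers summed to 133 to 289 scaled TPM in soft, 140 to 291 in stiff and 113 to 161 in primary libraries, and 0 of the astrocyte, neuron, mature oligodendrocyte and endothelial markers were called.

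Whether culture lowered these genes by a different amount in aged and neonate cells was tested as an interaction. By limma 0 of the 10 genes passed, where 0.112% of all genes did. An unadjusted p under 0.05 was found for 2 of the 10, beside 843 of all 15144 genes. The smallest unadjusted p was 0.0134, for Egr1 (limma adjusted p = 0.665).

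**Figure D2:**
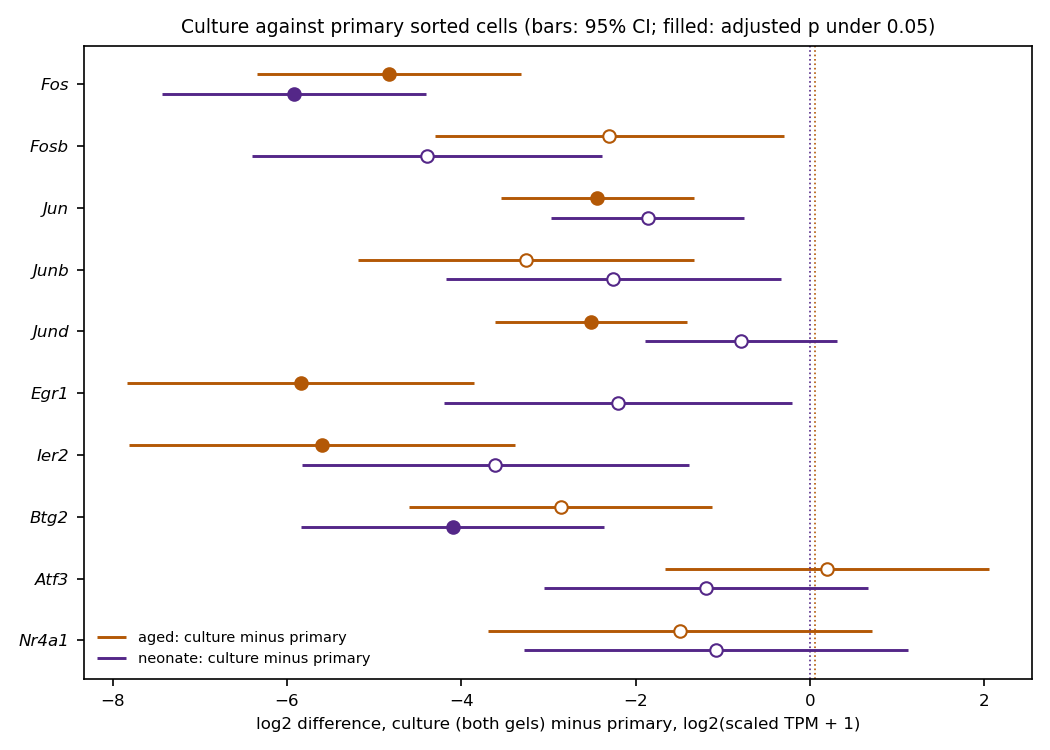
Fitted log2 difference of culture (mean of both gels) minus primary cells for the 10 genes, aged above neonate, with 95% confidence intervals from limma; filled points passed an adjusted p of 0.05 and dotted lines are the medians of all genes. Filled are Fos, Jun, Jund, Egr1 and Ier2 in aged cells and Fos and Btg2 in neonate cells, and Atf3 in aged cells is the 1 point above 0.

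Fos was looked at exon by exon, because it was the most abundant of the 10 genes in primary libraries. In culture its share of their sum was smaller, at 9.9% to 20.7% in aged soft, 21.5% to 34.2% in aged stiff, 5.69% to 26.7% in neonate soft and 0% to 16.3% in neonate stiff libraries. On rn6 the gene lies on chromosome 6 from 109300433 to 109303299 on the plus strand, in 4 exons of 293, 252, 108 and 936 bases. All 4 exons were covered in 6 of 12 cultured and 6 of 6 primary libraries. Exon 4, the longest, was covered in 9 of 12 cultured libraries at 0 to 40.6 scaled TPM, and in 6 of 6 primary libraries at 344 to 938 scaled TPM. Exon 2 was at 0 to 487 scaled TPM in cultured and 2293 to 7975 in primary libraries. In every exon the highest cultured library lay below the lowest primary one. Exon 2 held 47.1% to 55.5% of the Fos bases in primary libraries, so coverage was uneven along the transcript. In neonate stiff libraries exons 1 and 4 had 0 coverage in all 3, and the Fos values there came from exons 2 and 3.

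**Figure D3:**
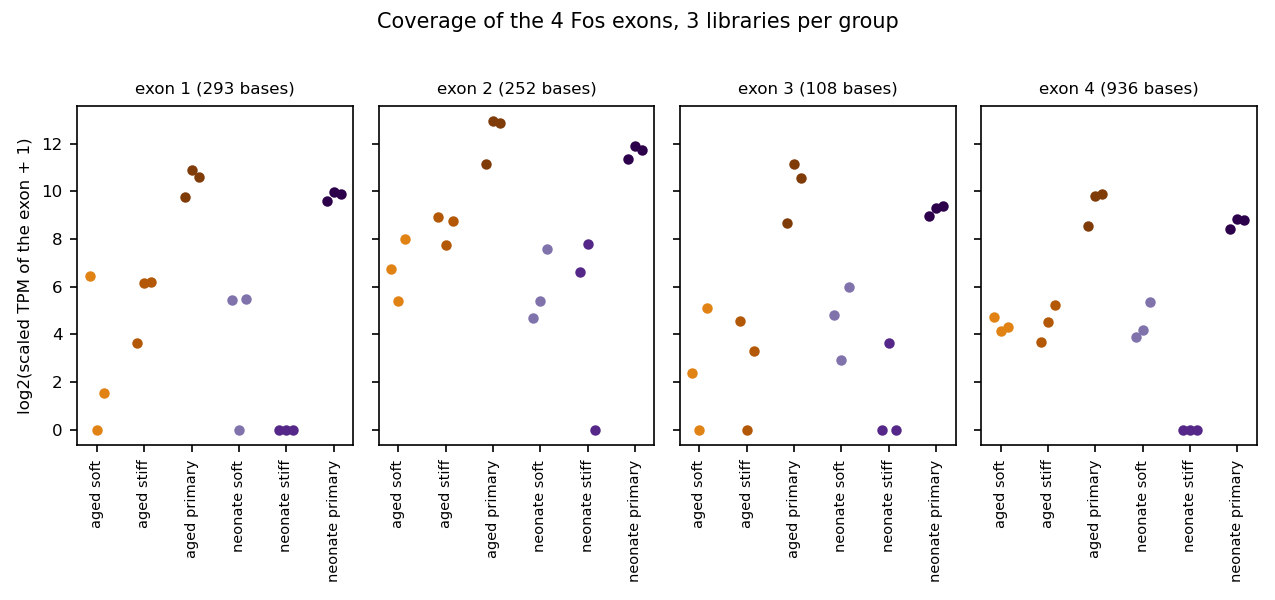
Level of each Fos exon as log2(scaled TPM of the exon + 1) in the 18 libraries, 3 points per group, exons numbered along the transcript. In each of the 4 exons the primary libraries lie above all cultured ones, and exon 2 is the highest in primary libraries, at 2293 to 7975 scaled TPM.

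Aged against neonate primary cells compares the ages without culture. By limma 0 of the 10 genes were called, where 2.6% of all genes were. An unadjusted p under 0.05 was found for 3 of the 10, beside 1930 of all 15144 genes. Jun and Junb did not overlap between the ages and were higher in aged cells, as were 11.1% of all genes. The median difference of the 10 was 0.95 on the log2 scale, against 0.69 for all genes.

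Jun was at 103.67, 249.86 and 278.97 scaled TPM in aged primary and 55.99, 41.37 and 53.76 in neonate primary libraries. Every aged library lay above every neonate one, and the log2 difference was 1.93 ± 0.62 (SE, n = 3 each; limma adjusted p = 0.110). Junb was at 176.80, 267.03 and 284.75 scaled TPM in aged primary and 23.84, 21.72 and 38.12 in neonate primary libraries. Its groups were far apart, with a log2 difference of 3.09 ± 1.08 (SE, n = 3 each; limma adjusted p = 0.154). Fos overlapped, at 771.53 to 2300.09 scaled TPM in aged and 800.69 to 1108.09 in neonate libraries. Fosb was at 13.58 to 55.71 scaled TPM in aged and 30.77 to 40.91 in neonate libraries.

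The age difference of Jun and Junb depended on the setting. Fitted on the 6 primary libraries alone, limma adjusted p was 0.0314 for Jun and 0.00226 for Junb. With voom on read equivalents both passed, at 0.000879 for Jun and 0.000210 for Junb. Without the 3 broad libraries Jun passed at 0.0274. Beside these values all 12 microglia markers were called higher in aged primary cells, and 3 of 7 OPC markers were called lower, with sums of 67.3 to 172 scaled TPM in aged and 728 to 855 in neonate libraries. Of 6 neuron markers 2 and of 6 mature oligodendrocyte markers 1 were called lower in aged primary cells. The part of these cell types in the levels of Jun and Junb was not tested.

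On soft hydrogel 1 of the 10 genes, Atf3, was called higher in aged cells and 0 were called lower, where 1.37% of all genes were called higher and 1.56% in either direction. Atf3 was at 23.31, 44.05 and 26.35 scaled TPM in aged soft libraries and was listed at 0 in all 3 neonate soft libraries. The groups did not overlap (limma adjusted p = 0.0105). The call was kept in 15 of 16 alternatives and lost under quantile normalization (adjusted p = 0.0572). The Atf3 values in aged soft libraries rested on only 3.28, 5.16 and 11.17 estimated read pairs. In the simulated data the unchanged genes that were called were likewise genes of few read pairs. Groups did not overlap for Atf3, higher in aged cells as were 16% of all genes, and for Jund, lower in aged cells as were 3.68%. Jund was at 22.50, 22.29 and 15.30 scaled TPM in aged soft and 56.25, 56.50 and 69.85 in neonate soft libraries (limma adjusted p = 0.207).

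On stiff hydrogel 1 of the 10 genes, Fos, was called higher in aged cells and 0 were called lower, where 1.13% of all genes were called higher and 2.18% in either direction. Fos was at 88.00, 59.70 and 103.69 scaled TPM in aged stiff and 15.59, 35.49 and 0 in neonate stiff libraries. The lowest aged library was above the highest neonate one, and the log2 difference was 3.29 ± 0.85 (SE, n = 3 each; limma adjusted p = 0.0347). The call was kept in 7 of 16 alternatives. It was lost without aged stiff replicate 1 (adjusted p = 0.0831), replicate 2 (0.0555) or replicate 3 (0.0653), and without neonate stiff replicate 3, the library at 0, where the difference was 1.75 and the adjusted p 0.284. Without the 3 broad libraries the adjusted p was 0.0956, with a pseudocount of 0.1 it was 0.0786, under quantile normalization 0.0790, with voom 0.218 and on the stiff groups alone 0.208.

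In all, 5 of the 10 genes on stiff gel did not overlap between the ages and were higher in aged than in neonate cells. These were Fos, Fosb, Jun, Btg2 and Atf3, beside 5.61% of all genes. Jun was at 54.24, 92.66 and 50.66 scaled TPM in aged stiff and 13.13, 11.92 and 13.94 in neonate stiff libraries (limma adjusted p = 0.0623). Its neonate libraries were close together and all aged ones were more than 3 times higher. Jund was the 1 gene lower in aged cells without overlap, as were 4.79% of all genes, at 8.80, 35.56 and 26.63 scaled TPM in aged stiff and 45.79, 48.40 and 54.91 in neonate stiff libraries (limma adjusted p = 0.388). Egr1 was at 20.15, 0 and 0 scaled TPM in aged stiff and 59.83, 36.23 and 17.03 in neonate stiff libraries, with overlap through aged replicate 1 (limma adjusted p = 0.0969). Without that library it was called lower in aged cells (0.0106), as it was without the 3 broad libraries (0.00679). Jun was called higher without the 3 broad libraries (0.0316), without aged stiff replicate 3 (0.0435) and without scaling (0.0239). Beside these results, microglia markers were called higher in aged cells for 3 of 12 on soft and 2 of 12 on stiff gels, with sums of 301 to 612 scaled TPM in aged soft and 46.5 to 122 in neonate soft libraries, and 134 to 394 in aged stiff and 34.4 to 52.5 in neonate stiff libraries. Of 7 OPC markers 2 were called lower in aged cells on each gel, and of 6 astrocyte markers 1 on stiff gel. Their part in the age differences was not tested.

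Soft against stiff hydrogel gave 0 calls among the 10 genes at either age. In aged cells 0.0792% of all genes were called. There 1 of the 10 genes, Jun, had an unadjusted p under 0.05 (limma adjusted p = 0.310), as had 1646 of all 15144 genes. In neonate cells 0% of all genes were called by limma, and voom on read equivalents called 6. An unadjusted limma p under 0.05 was found for 438 genes. They included 1 of the 10, Fos (0.0390), with a log2 difference of 1.85, higher on soft gel. Fos and Jun did not overlap in aged cells and were lower on soft gel, as were 1.69% of all genes. Fos was at 47.86, 16.55 and 54.48 scaled TPM in aged soft and 88.00, 59.70 and 103.69 in aged stiff libraries, with the highest soft library just below the lowest stiff one. Jun was at 33.36, 14.56 and 13.79 scaled TPM in aged soft and 54.24, 92.66 and 50.66 in aged stiff libraries.

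In neonate cells the Fos libraries of the 2 gels overlapped, and Jun was at 11.43, 17.92 and 10.73 scaled TPM in neonate soft and 13.13, 11.92 and 13.94 in neonate stiff libraries. Jund did not overlap and was higher on soft gel, as were 3.8% of all genes, at 56.25, 56.50 and 69.85 scaled TPM in neonate soft and 45.79, 48.40 and 54.91 in neonate stiff libraries. A difference of the stiffness response between ages was tested as an interaction, and 0 of the 10 genes passed, where 0.0066% of all genes did. The smallest unadjusted p was 0.0179, for Fos (limma adjusted p = 0.890). An unadjusted p under 0.05 was found for 1 of the 10 genes, beside 793 of all 15144.

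Other genes of the early response were followed in 5 lists of 66 genes in the files: 11 AP-1 and bZIP factors, 16 early transcription factors, 12 early effectors, 12 feedback genes and 15 upstream genes. All 66 were tested. In aged culture 2 of 12 feedback genes were lower and 0 of the other 54 were called. Zfp36, which with its relatives marks short-lived mRNAs for decay, was at 0, 6.21 and 11.79 scaled TPM in aged soft, 0, 22.67 and 0 in aged stiff, and 52.74, 86.44 and 119.98 in aged primary libraries (limma adjusted p = 0.0469). Its relative Zfp36l1 was at 4.01, 19.39 and 0 scaled TPM in aged soft, 0, 0 and 4.28 in aged stiff, and 42.63, 96.22 and 164.46 in aged primary libraries (limma adjusted p = 0.00643). Neither gene overlapped between culture and primary. The median difference of the 12 feedback genes was -2.17 on the log2 scale, and that of the 12 early effectors, Arc and Ptgs2 among them, 0.07. The 2 calls are 3.03% of the 66 genes, beside 1.11% of all genes. In neonate culture 0 of the 66 genes were called.

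Between ages, Batf3, a bZIP partner of Jun proteins, was at 42.97, 139.56 and 45.10 scaled TPM in aged primary libraries and was listed at 0 in all 3 neonate primary ones (limma adjusted p = 0.0380), and 0 of the other 65 genes were called there. On soft gel Maff, a small Maf factor, was at 15.61, 25.69 and 45.94 scaled TPM in aged libraries and was listed at 0 in all 3 neonate ones (limma adjusted p = 0.0406). Ier5, an early gene related to Ier2, was at 55.87, 82.66 and 111.33 scaled TPM in aged soft and 8.10, 4.15 and 6.27 in neonate soft libraries (limma adjusted p = 0.0204). It was the 1 gene of the 66 called on both gels. On stiff gel it was at 87.46, 119.53 and 57.11 scaled TPM in aged and 0, 19.52 and 9.93 in neonate libraries (limma adjusted p = 0.00778). Rps6ka1, a kinase downstream of ERK, was at 14.84, 15.15 and 16.59 scaled TPM in aged stiff libraries and was listed at 0 in all 3 neonate stiff ones (limma adjusted p = 0.0366). The calls between ages were 1.52% of the 66 genes in primary cells, beside 2.6% of all genes, 3.03% on soft gel, beside 1.56%, and 3.03% on stiff gel, beside 2.18%, and nothing is read from such counts about the lists. Soft against stiff and both interactions gave 0 calls among the 66. Calls of single genes among the 66 were not checked under the alternatives used for the 10 genes.

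The 10 genes varied together to different degrees. Over the 18 libraries, which share depth and group structure, Fos followed the mean of the other 9 with a Pearson r of 0.92 and Atf3 with 0.28, as a description across log2 levels. The highest pairwise r was 0.79, between Fos and Fosb, and the lowest -0.29, between Egr1 and Atf3. The 5 genes outside the set whose log2 level was most like the mean of the 10, among 4562 genes of at least 10 scaled TPM on average, were Hba1 (r = 0.91), Ttr (0.90), P2ry12 (0.87), Tifab (0.87) and Fam210a (0.86). Hba1 encodes a haemoglobin chain of red cells, Ttr is the transthyretin of choroid plexus, and P2ry12 is a purinergic receptor of microglia. Ttr was at 0 to 21.6 scaled TPM in aged soft, 0 to 21.0 in aged stiff and 1428 to 6779 in aged primary libraries. In neonate cells Ttr was at 0 to 23.96 scaled TPM in soft, 0 in all 3 stiff and 272 to 1209 in primary libraries. P2ry12 was at 0 to 7.34 scaled TPM in aged soft, 0 to 18.2 in aged stiff and 621 to 1164 in aged primary libraries.

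**Figure D4:**
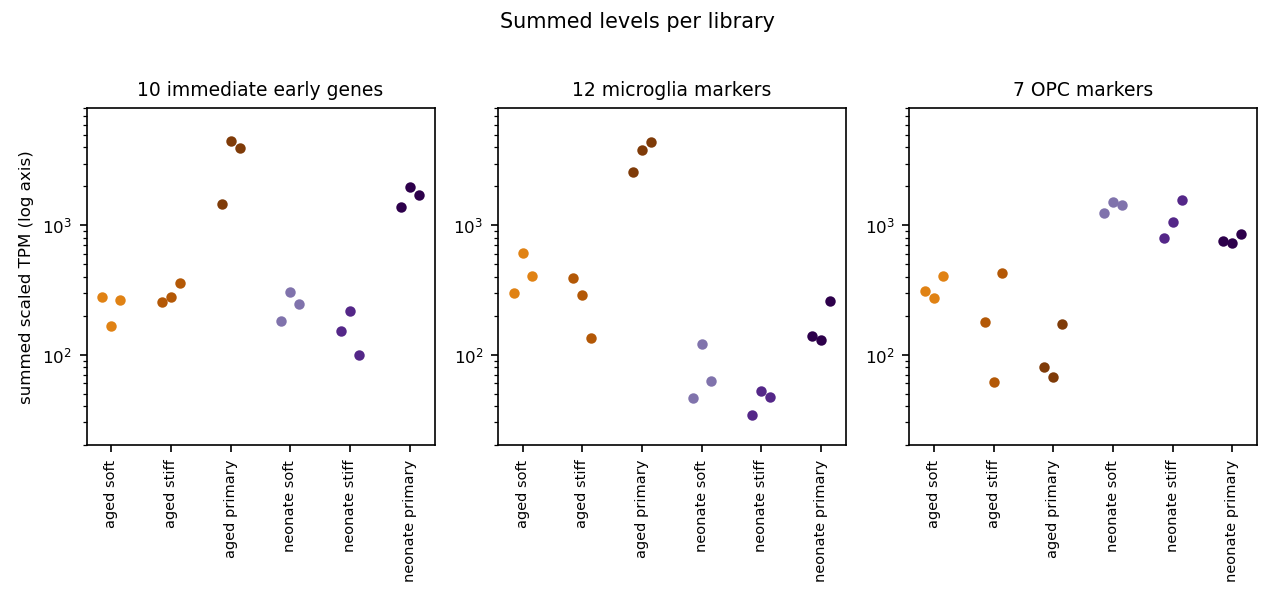
Summed scaled TPM per library, on a log axis, of the 10 immediate early genes, the 12 microglia markers and the 7 OPC markers, 3 points per group. The sums of the 10 genes are 1464 to 4513 in aged primary and 1389 to 1971 in neonate primary libraries, above all cultured ones, while the microglia sums are 2586 to 4401 in aged primary and 129 to 261 in neonate primary libraries.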

How the data were processed

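RNA of 18 rat libraries was prepared with a stranded total RNA kit for low input. Per the file headers, the authors quantified annotated transcripts with StringTie 1.3.2d on a UCSC rn6 annotation, with no strand option. The deposited transcript rows hold TPM, FPKM and coverage. The submitters' processing notes also name Trimmomatic, HISAT2 and Bowtie, without role or version. No annotated gene overlapped any of the 10 loci. TPM was summed per gene. Each library was then scaled by a median-of-ratios factor, computed from the 1644 genes detected in every library. Read pairs were estimated as coverage times length over 300 bases. Values of log2(scaled TPM + 1) were fitted in limma 3.58.1 (R 4.3.3) with 6 group means and a variance trend, for the 15144 genes that reached a TPM of 1 in at least 3 libraries. Adjusted p is Benjamini-Hochberg over all of them, with a threshold of 0.05.

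The 10 genes and all lists were chosen with earlier results of these data known. Named are all 10 genes, every called gene of the early response lists up to 4 per list and comparison, and the 5 genes most alike. Alternatives were voom on read equivalents, quantile normalization or no scaling, a pseudocount of 0.1, a filter at a TPM of 5 or none, a replicate block, the groups compared alone, the 3 broad libraries left out and each library left out. Rescaled factors were added after seeing the data. On simulated data unchanged genes made up more than the nominal share of calls, all of them genes of few read pairs, and the acceptance criterion of that check was changed after this was seen. Python 3.11.15, pandas 2.3.3 and matplotlib 3.10.9 were used.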

Additional observations from a re-analysis of the deposited data

How the results depend on the processing

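Counts among the 10 genes moved with the setting. In aged culture against aged primary the count of 5 was 3 with a pseudocount of 0.1, 6 on the groups compared alone, 7 with voom, and 2 to 5 with 1 library left out. In neonate culture the count of 2 was 1 with a pseudocount of 0.1, without a filter, with a TPM filter of 5, under quantile normalization and with rescaled factors, 5 without scaling and with voom, and 1 to 2 with 1 library left out. Between primary ages the count of 0 was 2 with voom, 1 without the 3 broad libraries, 2 on the groups compared alone, and 0 with any 1 library left out. On soft gel the count of 1 was 0 under quantile normalization and 2 without the 3 broad libraries, Egr1 being the added gene, lower in aged cells, and 1 with any 1 library left out. On stiff gel it was 0 with a pseudocount of 0.1, under quantile normalization, with voom and on the groups compared alone, 2 without scaling (Fos and Jun, both higher in aged cells) and 2 without the 3 broad libraries (Jun higher and Egr1 lower, Fos being lost), and 0 to 1 with 1 library left out. The 1 call was Fos, higher in aged cells, in 2 of those 6 runs. It was Egr1, lower in aged cells, without aged stiff replicate 1, and Jun, higher, without aged stiff replicate 3. Soft against stiff and both interactions stayed at 0 throughout. The causes were not tested. Atf3 in aged culture changed sign, to -0.13 without aged primary replicate 1 and to -0.03 without replicate 3, and ranged from -0.13 to 0.73 with 1 library left out. Of 66 further uncalled differences, 72 of 1224 runs changed sign and 6 runs were called.

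Over all genes, the counts ranged from 160 (pseudocount 0.1) to 977 (voom) around 394 between primary ages, 43 (without aged primary replicate 2) to 436 (voom) around 168 in aged culture, 3 (without neonate primary replicate 2) to 71 (voom) around 15 in neonate culture, 105 (without neonate soft replicate 1) to 940 (voom) around 236 on soft gel, and 108 (groups compared alone) to 678 (without aged stiff replicate 3) around 330 on stiff gel. They ranged from 0 (groups compared alone) to 117 (without the 3 broad libraries) around 12 for aged soft against stiff, 0 to 6 (voom) around 0 for neonate soft against stiff, 2 (without neonate primary replicate 2) to 85 (voom) around 17 for culture by age, and 0 to 6 (without the 3 broad libraries) around 1 for stiffness by age. The share of higher calls was 74.6% between primary ages, 61.0% without scaling and 51.4% under quantile normalization. It was 40% in neonate culture, 0% without scaling and 20% under quantile normalization, 87.7% on soft gel and 64.4% under quantile normalization, and 51.8% on stiff gel, 77.5% without scaling and 41.2% under quantile normalization. For culture by age it was 29.4%, 64.3% without scaling and 47.6% under quantile normalization, and for aged soft against stiff 100%, 85% under quantile normalization. Quantile normalization moved the median of all genes by -0.69 between primary ages, -0.87 on soft gel and -0.48 on stiff gel.

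Replicate numbers did not pair the samples across all groups. Same-number correlations of deviations ran from -0.09 to 0.23, and 4 of 45 were above 0.1. Those 4 were all between aged groups. Replicate 1, the broad library of each aged group, gave 0.23 for primary with soft, 0.21 for primary with stiff and 0.12 for soft with stiff. Replicate 3 gave 0.15 for aged primary with aged stiff. Whether these libraries share an origin was not tested. Header names differ from titles in 12 of 18 libraries. With a replicate block the counts among the 10 genes were 5 in aged culture, 2 in neonate culture, 0 between primary ages, 1 on each gel between ages and 0 elsewhere, and no call changed. The groups compared alone could not be used for culture by age, which needs all 6 groups. Depth limits values under 5 read pairs, 79 of 120 in culture.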
